A study of Homo sapiens with 4 samples.

Results

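The genes described here encode the 7 CDK inhibitors: CDKN1A (p21), CDKN1B (p27), CDKN1C (p57), CDKN2A (p16 and ARF), CDKN2B (p15), CDKN2C (p18) and CDKN2D (p19). They were chosen by name among 19794 protein-coding genes, and every ATAC-seq peak overlapping the gene body or the 50 kb either side was taken. ATAC-seq cuts accessible chromatin with the Tn5 transposase, so a peak marks an open stretch of DNA. The cells were HL-60, an established human line from the peripheral blood of a patient with acute promyelocytic leukemia, per the labels. ATRA cells received 1 µM all-trans retinoic acid (ATRA, dissolved in ethanol) for 4 days, and control cells received the same volume of ethanol for the same 4 days. The ATRA or the ethanol was renewed midway, and each group had 2 replicates.

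CDK inhibitors are small proteins that bind cyclin-dependent kinases (CDKs) and slow or stop the cell cycle. The Cip/Kip proteins p21, p27 and p57 bind complexes of a cyclin with its kinase, most of all those of CDK2. The INK4 proteins p16, p15, p18 and p19 bind CDK4 and CDK6 and keep these kinases from the D-type cyclins, which leaves the RB proteins free to hold back E2F transcription factors. Myeloid cells leave the cell cycle as they mature into granulocytes, and ATRA sets HL-60 cells on that course.

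The lists held 43494 peaks (ATRA replicate 1), 63541 (ATRA replicate 2), 42081 (control replicate 1) and 45903 (control replicate 2). ATRA replicate 2 stood apart. Its peaks had a median width of 416 bp and covered 31.6 Mb, against 291 to 328 bp and 16.3 to 17.5 Mb in the other lists. No read counts were given, so the depth of each library was unknown. Of the 8 myeloid line genes checked, SPI1 and CEBPE had a promoter peak in all 4 lists, MPO had one in 2 lists, and ELANE and AZU1 had none. The rest of the 8 had one in some of the lists but not in all. Of the granulocyte maturation genes, ITGAM had a promoter peak in all 4 lists, and CYBB, CD38 and FPR1 had none in any list. Regions elsewhere near these genes are counted below, with the cell-cycle genes. Of 7 genes of other cell types, 6 had no promoter peak in any list, and COL1A1 had one in all 4.

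The windows of the 7 genes merged into 6 stretches, because CDKN2A and CDKN2B are neighbours at 9p21, and spanned 708.4 kb. When the 4 lists were merged, 49 of 78046 regions lay in these windows. Regions are numbered within a gene's window along the chromosome (CDKN1A-1, CDKN1A-2 and so on), and distances are given from the start site of the reference (MANE) transcript in the direction of transcription. Each peak's score was ranked within its list, and the percentile (0 lowest, 100 highest) is the value given here for each library.

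The regions on which the comparison of the groups turns lay around CDKN1A and at 1 site near CDKN2D, and 200 bases about their centres are printed to show what sequence they hold (GRCh37, plus strand). CDKN1A-2, CDKN1A-6 and CDKN2D-5 were chosen for printing after their values were seen. Capitals mark matches to the consensus letters searched on both strands: TGACTCA or TGAGTCA for AP-1, AACCACA for RUNX, CACGTG for an E-box and GGGCGG for a GC box.
CDKN1A-1, chr6:36648268-36648467: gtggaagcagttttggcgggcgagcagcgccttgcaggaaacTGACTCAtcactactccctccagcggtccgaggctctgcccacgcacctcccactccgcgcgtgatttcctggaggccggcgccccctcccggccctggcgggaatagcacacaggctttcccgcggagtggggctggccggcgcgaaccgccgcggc
CDKN1A-2, chr6:36650741-36650940: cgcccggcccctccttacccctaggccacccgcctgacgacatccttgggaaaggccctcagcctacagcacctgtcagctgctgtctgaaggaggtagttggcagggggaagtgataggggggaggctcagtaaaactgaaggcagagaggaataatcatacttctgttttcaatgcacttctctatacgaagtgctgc
CDKN1A-3, chr6:36659961-36660160: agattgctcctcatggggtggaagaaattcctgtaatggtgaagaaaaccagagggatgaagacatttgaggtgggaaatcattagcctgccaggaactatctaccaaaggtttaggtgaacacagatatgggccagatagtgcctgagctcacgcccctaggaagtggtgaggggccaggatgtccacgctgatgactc
CDKN1A-6, chr6:36695461-36695660: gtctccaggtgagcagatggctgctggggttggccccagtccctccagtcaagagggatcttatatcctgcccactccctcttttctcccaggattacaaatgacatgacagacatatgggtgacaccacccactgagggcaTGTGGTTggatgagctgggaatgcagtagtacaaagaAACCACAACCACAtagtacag
CDKN2D-5, chr19:10691742-10691941: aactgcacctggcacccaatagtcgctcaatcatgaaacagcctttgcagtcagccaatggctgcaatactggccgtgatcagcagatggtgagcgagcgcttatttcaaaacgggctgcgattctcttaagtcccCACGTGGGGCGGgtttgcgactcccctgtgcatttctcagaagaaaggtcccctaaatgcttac

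These windows were searched for PU.1 (GAGGAAGT), CEBP (TTGCNNAA) and ETS (CCGGAAGT) as well, for the GATA factors by the letters AGATAA or TGATAA, and for the retinoid motif AGGTCA, with GGGTCA read as equal to it, and likewise AGTTCA together with the form GGTTCA, as direct repeats spaced by 1, 2 or 5 bases. CDKN1A-6 held 3 RUNX matches, a pair of them overlapping. In CDKN2D-5 the GC box followed directly on the E-box, with no base shared. CDKN1A-1 held 1 AP-1 match, had a GC content of 70.0% and counted 21 CpG dinucleotides, whereas CDKN1A-6 counted 0. CDKN1A-2 and CDKN1A-3 held none of these letters in the window. RUNX was found in 2 of the 49 regions and in 8.59% of all 78046 regions. GATA was found in 8 of the 49 (16.3%) and in 18.8% of all regions. The GC box was found in 13 of the 49 (26.5%) and in 13.3% of all regions. An E-box was found in 5 of the 49 (10.2%) and in 3.74% of all. No region of the windows held a retinoid direct repeat at the spacings searched, and at most 0.109% of all regions held any 1 of these repeats. A match is a stretch of letters and does not show that the factor was bound.

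Promoter peaks, with their centre from 1 kb upstream to 100 bp downstream of a start site of the gene, were found in all 4 lists for 5 of the 7 genes: CDKN1B, CDKN2A, CDKN2B, CDKN2C and CDKN2D. Of all protein-coding genes, 37.8% had one in all 4 lists. CDKN1A and CDKN1C had a promoter peak in none of the lists, although CDKN1A had peaks within its body in all 4. When only peaks above the median score of each list were kept, 3 genes had a promoter peak in all 4 lists.

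The start of CDKN1A is printed beside that of p16 because the first lay outside every peak and the second inside a peak of each list. Both are 200 bases upstream of the start site, on the strand of the gene, with GC boxes in capitals.
CDKN1A, chr6:36646287-36646486, plus strand: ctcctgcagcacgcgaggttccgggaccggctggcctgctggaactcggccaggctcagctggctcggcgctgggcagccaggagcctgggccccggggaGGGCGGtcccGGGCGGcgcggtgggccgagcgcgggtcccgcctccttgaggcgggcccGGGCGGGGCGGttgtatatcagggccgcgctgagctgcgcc
CDKN2A (p16), chr9:21974866-21975065, minus strand: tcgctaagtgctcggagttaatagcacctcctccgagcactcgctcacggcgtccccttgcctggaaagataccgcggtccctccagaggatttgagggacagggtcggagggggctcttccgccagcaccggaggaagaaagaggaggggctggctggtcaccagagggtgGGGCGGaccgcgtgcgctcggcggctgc
The CDKN1A sequence held 4 GC boxes, some overlapping, and its GC content was 78.0%. The p16 sequence held 1 GC box, and its GC content was 66.0%.

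Upon the ATRA induction the windows held more peaks, but the groups overlapped once the lists were cut to the same length. The 4 lists had 38 (ATRA replicate 1), 40 (ATRA replicate 2), 30 (control replicate 1) and 32 (control replicate 2) peaks in the windows. The means were 39.0 ± 1.41 in ATRA cells and 31.0 ± 1.41 in control cells (SD, n = 2), and the groups did not overlap. An exact two-sided permutation test of this difference of 8.0 peaks gave p = 0.33, the smallest value that 2 against 2 libraries can give. With the 42081 highest peaks of each list, the means were 32.5 ± 4.95 and 30.0 ± 0, the groups overlapped, and the difference was 2.5 peaks.

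The window of CDKN2D was the only one in which both ATRA lists had more peaks than both control lists. It held 8 and 7 peaks in the ATRA lists and 2 and 2 in the control lists. With equal numbers of peaks per list the counts were 7 and 4 against 2 and 2. This window also holds AP1M2, ATG4D, KRI1, S1PR5 and SLC44A2, so the added peaks lay in a stretch shared by 6 genes.

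**Figure D1:**
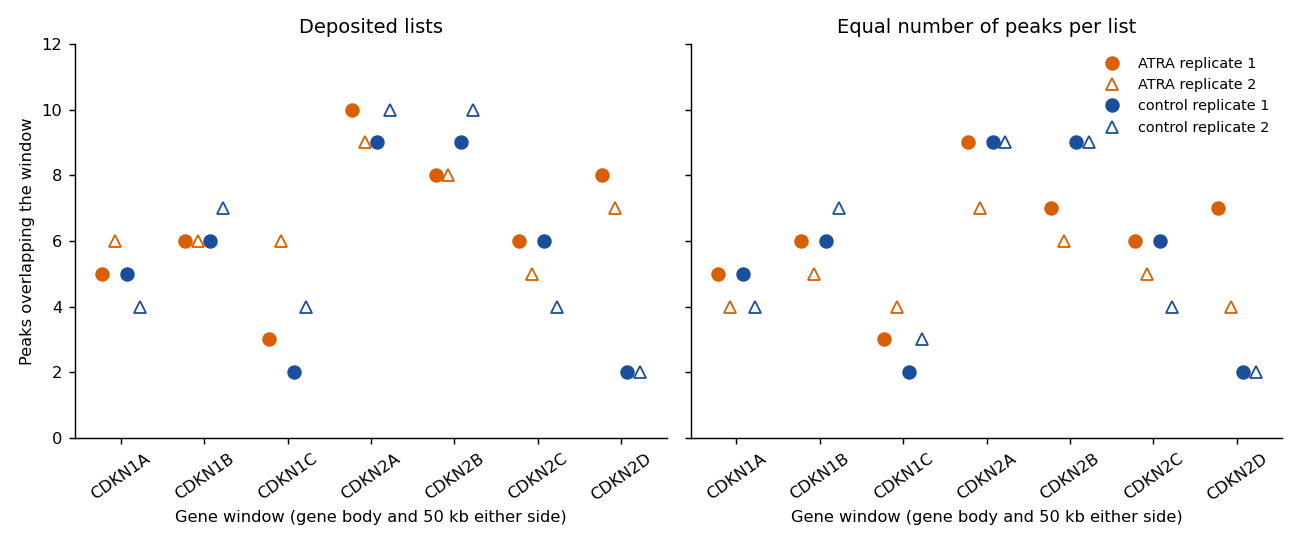
Number of peaks (vertical axis) in the window of each CDK inhibitor gene (horizontal axis) for each of the 4 libraries, with the deposited lists on the left and the 42081 highest peaks of each list on the right. The CDKN2D window held 8 and 7 peaks in the ATRA lists and 2 and 2 in the control lists, and both ATRA counts stayed above both control counts on the right, at 7 and 4. CDKN2A and CDKN2B share part of their windows.

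Regions were grouped by the lists in which they had a peak. Of the 49 regions, 19 had a peak in all 4 lists, 13 were ATRA-specific, 4 were control-specific, 11 were in a single list and 2 were in 1 list of each group. ATRA-specific means that both ATRA lists had overlapping peaks and the control lists did not have overlapping peaks of their own there. A control-specific region is the reverse. Of the 13 ATRA-specific regions, 6 were absent from both control lists, 5 were also in control replicate 2 and 2 in control replicate 1. Of the 4 control-specific regions, 2 were absent from both ATRA lists and 2 were also in ATRA replicate 2. Over the whole genome, 23654 of the 78046 regions had a peak in all 4 lists. There were 14071 ATRA-specific and 7444 control-specific merged peaks, so the former were the more numerous genome-wide as well. Of these, 6975 and 2633 were absent from both lists of the other group. With equal numbers of peaks per list, the 13 and 4 became 10 ATRA-specific and 6 control-specific regions, and 5 and 3 of these were absent from both lists of the other group.

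At least 1 ATRA-specific region lay in the window of 6 of the 7 genes, and of 64.5% of all protein-coding genes. A control-specific region lay in the window of 3 of the 7 genes, against 39.0% of all genes. Regions in both ATRA lists and neither control list were found for 3 of the 7 genes, CDKN1A, CDKN2A and CDKN2D, against 40.8% of all genes. The reverse was found for 2 of the 7, CDKN1B and CDKN2C, against 16.5%. CDKN2D had 4 regions in both ATRA lists and neither control list, the highest count of the 7 genes. In the lists as deposited, 1.31% of all genes had at least as many. With equal numbers of peaks per list, 2 of these 4 were left, and the share of all genes was not counted at that setting. Leaving out 1 library at a time gave 8 to 19 ATRA-specific and 2 to 8 control-specific regions, the 8 ATRA-specific ones without control replicate 1, the 2 control-specific ones without ATRA replicate 1 and the 8 control-specific ones without control replicate 2.

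Of the 19 regions in all 4 lists, 8 had both ATRA percentiles above both control percentiles, and 29.2% of the 23654 such regions of the genome did. The reverse order was seen in 2 of the 19, against 12.8%, and in the remaining 9 the groups overlapped. The median difference of the 19 (ATRA minus control) was 6.60 percentile points, and that of all 23654 was 2.83, with the middle 90% of regions between -25.9 and 37.5. A fit across all 23654 regions (limma on the percentiles, Benjamini-Hochberg adjustment) called 0 of them (0%), with a smallest adjusted p of 0.384, and none of the 19. At an unadjusted p under 0.05 it gave 1764 regions higher and 663 lower in ATRA cells, together 10.3%, and among the 19 it gave 2 higher and 1 lower, all 3 in the CDKN1A window.

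**Figure D2:**
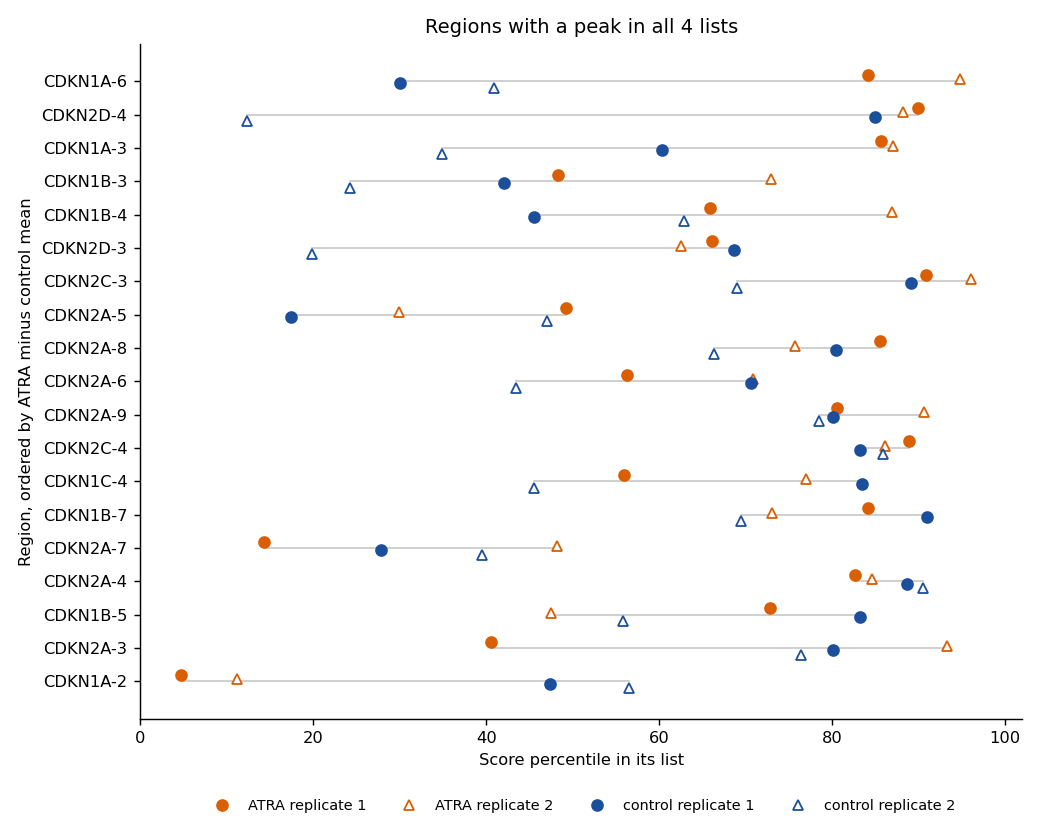
Score percentile within its list (horizontal axis) of the 19 regions with a peak in all 4 lists (vertical axis, ordered by the difference of the group means), each point standing for 1 library and each grey line for the range. CDKN1A-6 is at the top, with 84.1 and 94.8 in ATRA against 30.0 and 40.9 in control, and CDKN1A-2 is at the bottom, with 4.7 and 11.2 against 47.4 and 56.5.

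CDKN1A encodes p21, the inhibitor best known as a target of p53 and as a gene that rises when many cell types stop dividing. Its window held 7 regions, of which 3 had a peak in all 4 lists and 2 were ATRA-specific. None was control-specific. The percentiles of the 3 shared regions did not move one way: both distal regions stood higher in ATRA cells, and the one within the gene stood lower.

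CDKN1A-6 (chr6:36695211-36695979) lay in an intron of RAB44, a Rab GTPase gene, 49.1 kb downstream of the CDKN1A start. Its percentiles (replicate 1, then replicate 2, here and below) were 84.1 and 94.8 in ATRA cells and 30.0 and 40.9 in control cells. Both ATRA libraries were far above both control libraries. The difference was 54.0 points (SE 16.4), with an adjusted p of 0.403 by limma across all regions. The peak was also wider in ATRA cells, at 592 and 700 bp against 247 and 406 bp. On log2 scores, quantile normalised, this was the only region of the windows that limma called, with a difference of 1.73 and an adjusted p of 0.0476; 373 of the 23654 regions (1.58%) were called under that setting. The region was singled out after its values were seen, as was CDKN1A-2.

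CDKN1A-3 (chr6:36659830-36660406), between CDKN1A and RAB44 and 13.6 kb from the CDKN1A start, had percentiles of 85.7 and 87.0 in ATRA cells and of 60.3 and 34.9 in control cells. The groups did not overlap. The difference was 38.7 points (SE 16.3, limma adjusted p = 0.474). CDKN1A-2 (chr6:36650649-36651098), in an intron of CDKN1A 4.35 kb from the start, had the opposite order. Its percentiles were 4.7 and 11.2 in ATRA cells and 47.4 and 56.5 in control cells, a difference of -44.0 (SE 16.9, limma adjusted p = 0.441). At none of the 3 regions did the groups overlap, so leaving out any 1 library could not turn the sign.

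Of the ATRA-specific regions, CDKN1A-1 (chr6:36648062-36648679) lay 1.88 kb into the gene, over an exon of a non-coding transcript of CDKN1A. Its percentiles were 69.2 and 65.6 in ATRA cells and 24.8 in control replicate 2, and control replicate 1 had no peak there. CDKN1A-5 (chr6:36668599-36669024), in another RAB44 intron at 22.4 kb, had percentiles of 25 and 51.7 in ATRA cells and no peak in either control list. That both ATRA lists had a peak at each of these sites follows from their choice as ATRA-specific regions.

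**Figure D3:**
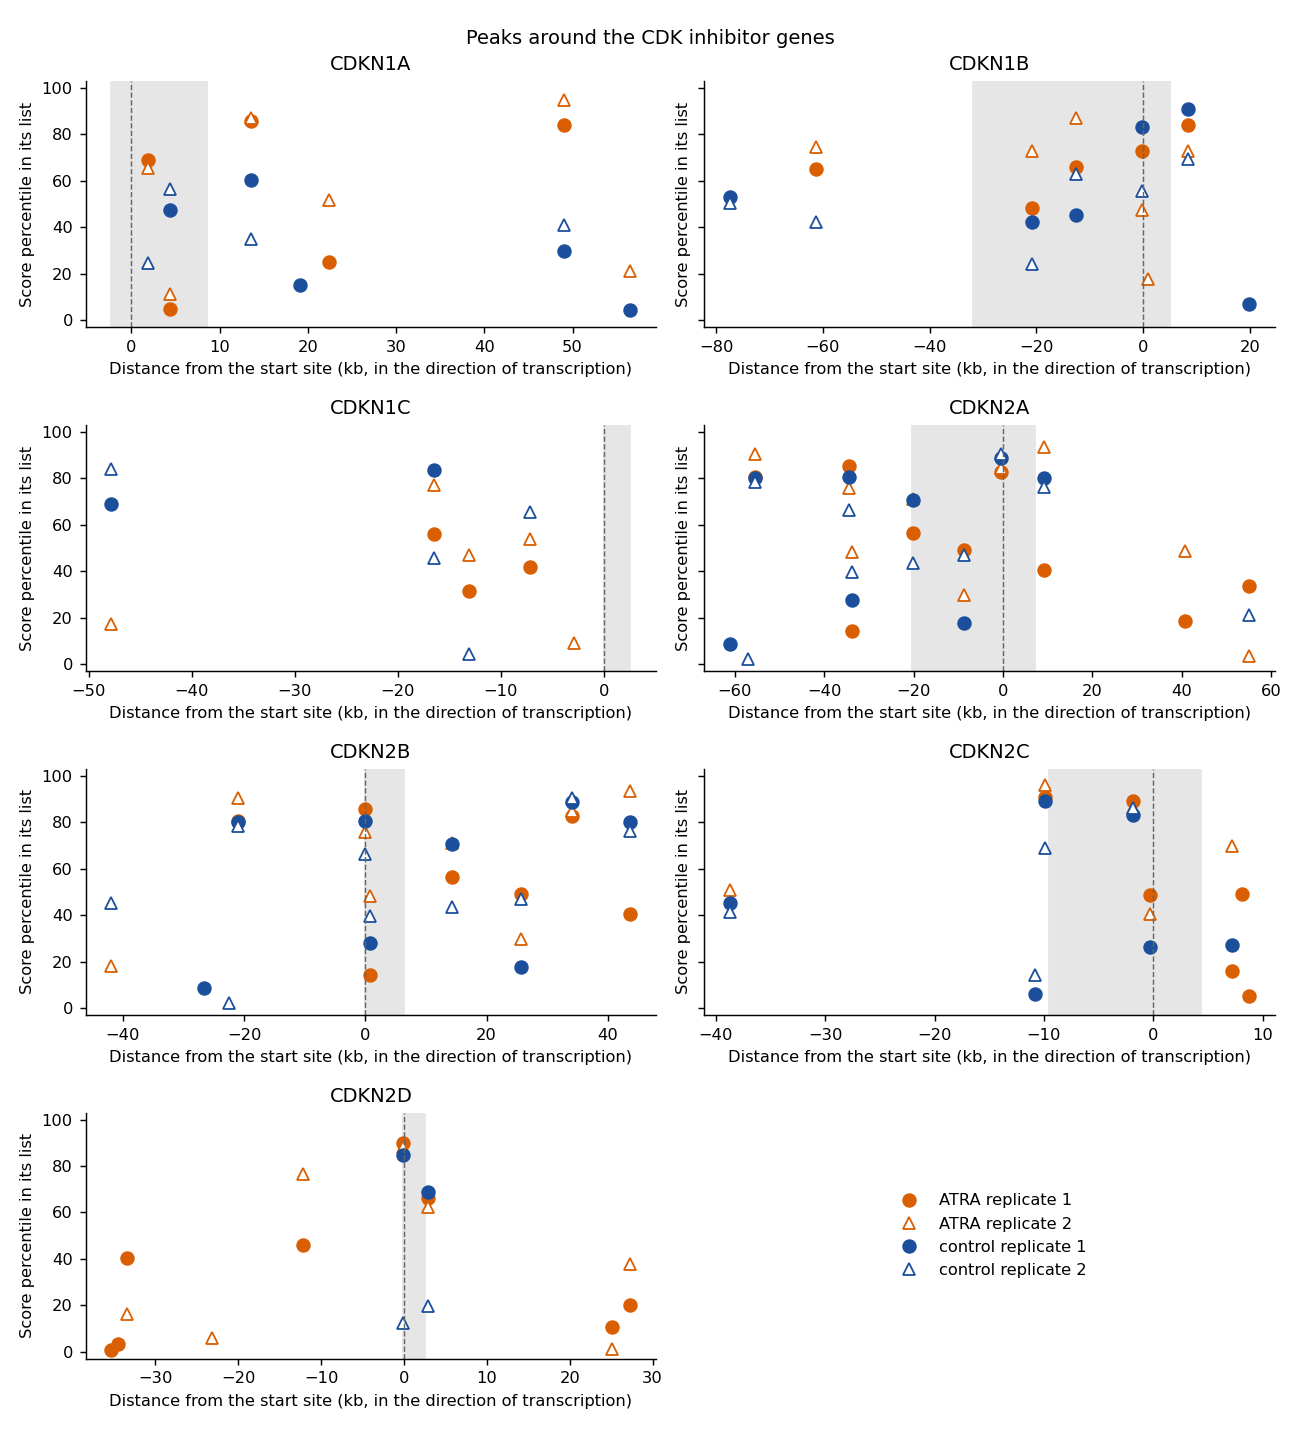
Score percentile within its list (vertical axis) of every peak region against the distance from the start site in kb (horizontal axis, positive downstream), 1 panel for each gene and 1 point for each library with a peak. Grey bands mark the gene body and dashed lines the start site; no point lies at the start of CDKN1A or CDKN1C, and points of all 4 libraries lie at the starts of CDKN1B, CDKN2A, CDKN2B and CDKN2D.

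CDKN1B encodes p27, which accumulates in resting cells and is removed through SKP2. Its window held 8 regions, 4 of them in all 4 lists. The promoter region, CDKN1B-5 (chr12:12869798-12870421), had percentiles of 72.8 and 47.5 in ATRA cells and 83.2 and 55.8 in control cells. The values of the groups interleaved, and the difference of -9.4 points (SE 17.9, limma adjusted p = 0.891) turned to 3.3 without ATRA replicate 2 and to 4.3 without control replicate 1. The strongest distal region, CDKN1B-7 (chr12:12877995-12879086), just upstream of APOLD1, overlapped as well, at 84.2 and 73.0 against 91.0 and 69.5.

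Both shared regions in the long upstream part of the annotated gene body stood higher in ATRA cells, without overlap. CDKN1B-3 (chr12:12848917-12849864), 20.9 kb upstream of the start of the reference transcript and 294 bp upstream of a GPR19 start, had 48.3 and 72.9 in ATRA cells and 42.1 and 24.3 in control cells. CDKN1B-4 (chr12:12857500-12857891), 12.6 kb upstream, had 65.9 and 86.9 against 45.5 and 62.9. The limma adjusted p of these differences was 0.606 and 0.657. Both regions were named after their values were seen.

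An ATRA-specific region of this window lay farther out, on the upstream side. CDKN1B-2 (chr12:12808877-12809299), at 61.2 kb and intergenic, had 65.1 and 74.6 in ATRA cells, 42.1 in control replicate 2 and no peak in control replicate 1.

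CDKN1C encodes p57, an imprinted gene expressed mainly from the maternal allele. It had no peak in its body, and of 5 regions in its window 1 was in all 4 lists. That region, CDKN1C-4 (chr11:2923248-2923749), lay at the start of SLC22A18, a membrane transporter gene, 16.5 kb upstream of CDKN1C. Its percentiles were 55.9 and 77.0 in ATRA cells and 83.4 and 45.5 in control cells. The control values bracketed those of the ATRA cells.

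Nearer to CDKN1C, a pair of ATRA-specific regions lay in introns of the antisense gene SLC22A18AS, both also found in control replicate 2. CDKN1C-2 (chr11:2913249-2914521), 7.18 kb upstream, had 41.6 and 54.0 in ATRA cells and 65.7 in control replicate 2, so that the control library with a peak ranked it highest. CDKN1C-3 (chr11:2919841-2920304), 13.1 kb upstream, had 31.3 and 47.1 against 4.5. The control-specific region CDKN1C-5 (chr11:2954628-2954954), 47.8 kb upstream near PHLDA2, had 68.8 and 84.0 in control cells, 17.4 in ATRA replicate 2 and no peak in ATRA replicate 1.

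CDKN2A and CDKN2B lie side by side at 9p21, a stretch that many leukemia lines have lost. When the genes were chosen the pair was taken to be deleted in HL-60, in which case no peak would be called there. The lists go against this, since peaks were present there in every library. The joint window (chr9:21917751-22059304, 141.6 kb) held 10 and 10 peaks in the ATRA lists and 9 and 11 in the control lists. Of all stretches of that length, 22.0% to 34.1% held no peak, and between 0.751% and 3.51% held as many peaks as this window or more, depending on the list. The lists thus do not show the empty stretch that a loss of both copies would leave. They give no copy number, so the number of copies was not tested.

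The p16 promoter region, CDKN2A-4 (chr9:21974675-21975632), had percentiles of 82.6 and 84.6 in ATRA cells and of 88.6 and 90.5 in control cells. It was lower in both ATRA libraries by a small margin, 6.0 points between the means of 83.6 ± 1.38 and 89.5 ± 1.33 (SD, n = 2), with a limma adjusted p of 0.652. It was also the shared region with the highest mean percentile in the window of CDKN2B outside that gene's promoter. The ARF promoter region, CDKN2A-6 (chr9:21994391-21995643), from which the p53-stabilising protein ARF is transcribed, had 56.3 and 70.9 against 70.6 and 43.5. These values overlapped.

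The CDKN2B promoter region, CDKN2A-8 (chr9:22008962-22009708), had 85.5 and 75.7 in ATRA cells and 80.4 and 66.3 in control cells, again with overlap. This p15 promoter also lies in an intron of the antisense RNA CDKN2B-AS1, and open chromatin there cannot be assigned to either gene. CDKN2A-9 (chr9:22030048-22030560), over an exon of CDKN2B-AS1, had 80.6 and 90.6 in ATRA cells and 80.1 and 78.5 in control cells. The groups did not overlap, but the closest libraries differed little, and the limma adjusted p was 0.783.

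The ATRA-specific regions of this window lay at its far end, in MTAP, a neighbouring gene of methionine salvage. CDKN2A-2 (chr9:21933969-21934254) had 18.5 and 48.9 in ATRA cells and no peak in either control list. CDKN2A-1 (chr9:21919627-21919985) had 33.6 and 3.3 in ATRA cells and 21.1 in control replicate 2. All of these values lay below the middle of their lists. No region was control-specific at 9p21, and none was specific to either group in the window of CDKN2B. With equal numbers of peaks per list, 1 control-specific region was counted, in the stretch that the windows of CDKN2A and CDKN2B share.

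CDKN2C encodes p18. It had 3 promoter regions, because its transcripts begin at separate start sites. The most upstream, CDKN2C-3 (chr1:51425528-51426538), is shared with FAF1, which starts 67 bp away and runs the other way. Its percentiles were 90.8 and 96.1 in ATRA cells and 89.1 and 69.0 in control cells. The middle one, CDKN2C-4 (chr1:51433646-51434942), had 88.9 and 86.1 against 83.2 and 85.9. Both were high in every library, and the limma adjusted p was 0.498 and 0.860.

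The third, CDKN2C-5 (chr1:51435234-51436191), lay 271 bp upstream of the start of the reference transcript and was ATRA-specific. It had 48.8 and 40.3 in ATRA cells, 26.1 in control replicate 1 and no peak in control replicate 2. Judged by the region centre, this was the only promoter region of the 7 genes that was specific to a group. The control-specific region CDKN2C-2 also overlapped a CDKN2C promoter, with its centre outside it. CDKN2C-6 (chr1:51442538-51443757), downstream of the gene, was also ATRA-specific, with 16.1 and 69.7 against 27.2 in control replicate 1.

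The control-specific regions of this window lay upstream, in introns of FAF1. CDKN2C-2 (chr1:51424909-51425465) had 5.9 and 14.3 in control cells and no peak in the ATRA lists, and it lay beside the FAF1 promoter region. There the neighbouring peak, CDKN2C-3, was 935 and 956 bp wide in ATRA cells and 658 and 454 bp wide in control cells. CDKN2C-1 (chr1:51397030-51397416), at 38.7 kb, had 45.0 and 41.4 in control cells and 51.0 in ATRA replicate 2, so that the ATRA library with a peak ranked it highest.

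CDKN2D encodes p19, the remaining INK4 inhibitor. Its promoter region, CDKN2D-4 (chr19:10679484-10680175), had percentiles of 89.9 and 88.2 in ATRA cells and of 84.9 and 12.3 in control cells. The groups did not overlap, but the low value came from control replicate 2 alone. The difference of 40.4 points (SE 22.5, limma adjusted p = 0.547) was 4.2 without that library. CDKN2D-3 (chr19:10676508-10677172), at the start of KRI1, had the same low library: 66.1 and 62.5 in ATRA cells, 68.7 in control replicate 1 and 19.9 in control replicate 2. Without control replicate 2 its difference of 20.0 points turned to -4.4.

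All 4 ATRA-specific regions of this window were absent from both control lists, and each lay nearest to the start of another gene. CDKN2D-5 (chr19:10691592-10692092), in an intron of AP1M2, was the strongest, with 46.0 and 76.4. CDKN2D-1 (chr19:10652160-10652533), 2233 bp upstream of ATG4D, had 20.3 and 37.8. These 2 were left with equal numbers of peaks per list.

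The other pair ranked low. CDKN2D-2 (chr19:10654263-10654679), 39 bp upstream of ATG4D, had 10.7 and 1.2. CDKN2D-7 (chr19:10712921-10713221), 57 bp upstream of SLC44A2, had 40.6 and 16.1. Both of these regions at gene starts were rich in G and C, with 76.5% and 81.5%, and held a GC box. CDKN2D-5 had a GC content of 52.5% and CDKN2D-1 of 48.5%.

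The width of a peak gave a second measure of the same regions. Of the 19 regions in all 4 lists, 10 were wider in both ATRA libraries than in both control libraries, and 37.4% of all 23654 were. None of the 19 was narrower in both. The median difference was 170 bp in the windows and 104 bp over all 23654 regions, and the part of ATRA replicate 2, whose list had the largest median width, was not tested. On log2 widths, quantile normalised so that every library had the same distribution over these regions, limma called 0 of the 19 and 2 of the 23654. On that scale the difference was 0.35 at the CDKN2D promoter, 0.93 at the ARF promoter and -0.41 at the p16 promoter (limma adjusted p = 0.803, 0.407 and 0.752). At the CDKN2D promoter the widths were 607 and 629 bp in ATRA cells and 474 and 301 bp in control cells. At the ARF promoter they were 511 and 1253 bp against 411 and 272 bp. There every library but ATRA replicate 2 had 2 peaks in the region, and the width is that of the higher-scoring one. A single joined peak was thus set against 1 of 2 separate peaks. CDKN1B-3 likewise had 2 peaks in ATRA replicate 1 and in control replicate 2. At the p16 promoter, 624 and 744 bp against 627 and 803 bp, the groups overlapped.

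**Figure D4:**
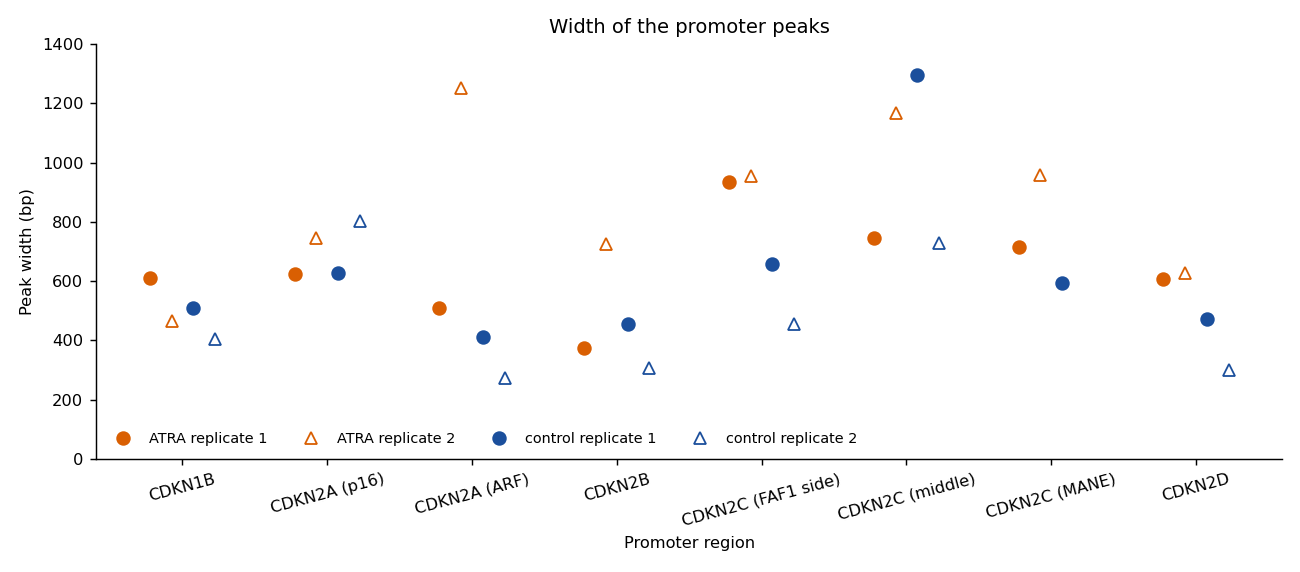
Width in bp (vertical axis) of the highest-scoring peak at each promoter region of the CDK inhibitor genes (horizontal axis), 1 point for each library. At the ARF promoter every library but ATRA replicate 2 had 2 peaks in the region. Both ATRA points lie above both control points at the CDKN2D and ARF promoters and at the upstream CDKN2C start shared with FAF1, and above the 1 control library with a peak at the CDKN2C reference (MANE) promoter; the groups overlap at the promoters of CDKN1B, p16, CDKN2B and the middle CDKN2C start.

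Cell-cycle partner genes of the inhibitors were read the same way, from a list of 21 CDKs, cyclins, RB proteins, E2F factors and regulators. A promoter peak was found in all 4 lists for 13 of the 21, against 37.8% of all protein-coding genes, and in no list for E2F2. The other 7 had one in some lists. CDK1, the mitotic kinase, lacked it in ATRA replicate 2, with percentiles of 97.7, 94.6 and 97.1 in the lists that had it. CDK2 and CCNE1, the kinase and cyclin of entry into S phase, lacked it in control replicate 2, and RBL2 (p130) in control replicate 1. CCND1 (cyclin D1) and RBL1 (p107) had it in both ATRA lists and neither control list, with 46.0 and 36.2 for CCND1 and 51.5 and 76.0 for RBL1. The share of all genes with that pattern is not given here, so whether it was unusual was not tested. CDK6 had it in ATRA replicate 1 alone, at a percentile of 19.1.

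Within 5 kb of the gene body, 10 of the 21 had an ATRA-specific region, against 34.2% of all protein-coding genes, and 4 of the 21 had a control-specific region, against 18.0%. The 10 were CDK2, CDK6, CCND1, CCND2, CCND3, CCNE1, CCNE2, RBL1, RBL2 and E2F1. The 4 were CDK6, CCND3, RB1 and SKP2. CDK6, a kinase that the INK4 inhibitors bind, and CCND3, a D-type cyclin, had regions of both kinds. By the same measure, 5 of 5 granulocyte maturation genes, CYBB, CD38 and FPR1 among them, had an ATRA-specific region, and 2 had a control-specific one. The counts were 4 and 2 of the 8 myeloid line genes and 2 and 1 of the 7 genes of other cell types.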

How the data were processed

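ATAC-seq was made from HL-60 cells, 2 replicates for each of ATRA and ethanol control, which the methods call independent biological replicates. Per the labels and methods, the authors removed adapters, aligned reads to hg19 and called peaks for each library. The submitters' processing notes name cutadapt, Bowtie2, MACS2 and MACS, without versions. A Tn5 shift, duplicate removal and a blacklist are not given in the sources used here, and could move peak edges or add peaks. Each deposited list holds 5 columns, with the authors' score running from 50.0 to a ceiling of 3100 on a scale that is not stated, so scores were ranked within a list. The lists give no depth.

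Genes and start sites came from GENCODE release 44 on GRCh37, the same assembly; 0 of 24 chromosomes were missing from it and 0 peaks lay past a chromosome end. Windows were the gene body and 50 kb either side. Peaks overlapping by at least 1 bp in both replicates were pooled and merged, and those without overlap with such peaks of the other group were called specific. Regions are merged peaks of the 4 lists, valued by the highest-scoring peak of each library. Percentiles of the 23654 regions in all 4 lists were fitted with limma 3.58.1 (trend, R 4.3.3), with an adjusted p threshold of 0.05; the fit was tested on simulated data. Python 3.11.15, pandas 2.3.3, pysam 0.24.0 and samtools 1.23.1 were used. Motifs were searched in 200 bp about the region centre. Named regions were the promoter regions, the group-specific regions and, per window, the shared distal region with the highest mean percentile; those named outside this rule are marked. A control-specific region of the CDKN1B window and a marker gene are counted but not reported here. The genes, lists and tests were chosen with earlier results of these data known.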

Additional observations from a re-analysis of the deposited data

How the results depend on the processing

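Groups of 2 libraries limit every comparison, and without read counts a peak that is missing from a list cannot be told from one just under the calling threshold. The mean number of peaks in the windows was higher in ATRA cells under all 9 alternatives, by 2.5 to 14.0, and by 7.0 to 9.0 when 1 library was left out. The groups did not overlap in the full lists, so leaving out 1 library could not turn this difference. With equal numbers of peaks per list the difference was 2.5 and the groups overlapped. Among peaks above the median score of each list it was 4.5 (exact permutation test, p = 0.667). ATRA-specific regions numbered 13, or 3 with 5 kb either side, 6 when absent from both control lists, and 5 when equal numbers of peaks were also required, a combination chosen after seeing the data; leaving out 1 library gave 8 to 19. Control-specific regions numbered 4, or 1 with 25 kb and 1 with 5 kb either side, 2 when absent from both ATRA lists and 7 with peaks of 200 bp; leaving out 1 library gave 2 to 8. Genes with a promoter peak in all 4 lists fell from 5 to 3 among peaks above the median score of each list and stayed at 5 in the other 7 alternatives. Limma called 0 of 23654 regions, but 330 with the replicate number as a block, 373 on log2 scores, 2 on log2 widths, and 0 to 252 when 1 library was left out, the 252 without control replicate 2; the cause was not tested. Of the 19 regions of the windows, 1 was called on log2 scores (CDKN1A-6) and 0 under the other settings, the replicate block included. Deviations of same-numbered libraries correlated at 0.211, and with only 2 pairs the numbers were not taken as a pairing.

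Of 128 alternatives for 16 single regions, 113 kept direction and side of the threshold, 14 turned sign and 1 passed the threshold. Many of the 128 could not turn a sign. The replicate block and the removal of regions at the score ceiling left every percentile difference as it was. Where the groups did not overlap, leaving out 1 library could not turn the sign either. On log2 widths the difference (ATRA minus control) turned to 0.46 at CDKN1B-7, -0.20 at CDKN1C-4 and -0.36 at CDKN2C-4, and on log2 scores to -0.19 at CDKN1C-4 and -0.02 at CDKN2A-6. When 1 library was left out, the percentile difference ran from -23.1 to 4.3 at CDKN1B-5, from -12.4 to 9.1 at CDKN1B-7, from -17.0 to 20.9 at CDKN1C-4, from -7.0 to 20.1 at CDKN2A-6 and from -4.4 to 44.4 at CDKN2D-3. A group of 1 library in these fits was assumed to vary like the other group.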
